A study of Homo sapiens with 8 samples.

Results

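The subunits of oxidative phosphorylation are described here across 8 one-colour Agilent arrays of NGP, an established human neuroblastoma cell line. Members were the nuclear genes whose probes carry a symbol that begins NDUFA, NDUFB, NDUFC, NDUFS or NDUFV with a number, UQCR, COX4 to COX8 or ATP5, or that is SDHA, SDHB, SDHC or SDHD. Pseudogenes were left out. The symbols of the platform annotation matched 86 of the 21524 measured genes, with 118 of 50599 probes. Of these, 82 genes with 110 probes were counted by complex, with 35 in complex I, 4 in complex II, 8 in complex III, 19 in complex IV and 16 in complex V. The other 4 genes are not subunits under their current names and are given apart. UQCRHL, a copy of the complex III gene UQCRH, was not analysed here.

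The study asked how transduction of CFC1, which encodes a coreceptor of Nodal signalling, alters the transcripts of NGP cells. In 4 samples the cells had received CFC1 cDNA by lentivirus and in 4 samples a mock construct, and both groups had been selected with puromycin and grown in RPMI with fetal bovine serum. The labels give neither the promoter of the construct nor whether cells were cloned, and no label states that the samples were separate cultures, so the p-values reflect only how much these arrays vary, which can be technical variation. In RNA from whole cultures, fewer cells of a type and less RNA per cell cannot be told apart.

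Each value is a difference on a log scale from a baseline that is not stated, set for each probe, and was read as log2. Such a value can be compared between arrays for one gene but gives no level of expression, so neither the presence of a transcript nor the order of levels between genes can be read from it. The gene used for the labels was not higher in its own group. CFC1 read 0.05, -0.69, -0.59 and -0.30 in the arrays labelled CFC1 and 0.47, 1.10, 0.12 and -0.03 in the mock arrays. The highest array of the first group lay within the range of the mock arrays. The difference was -0.80 (SE 0.28, adjusted p = 0.0398 by limma), and p was 0.057 by an exact permutation test (two-sided, 70 arrangements), where the smallest p possible is 0.029. The groups are therefore called the arrays labelled CFC1 and the mock arrays throughout, and every direction below rests on those labels.

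Marker lists of neuroblastoma and of other cell types are given beside the share of all genes, of which 29.7% were higher and 28.2% lower. Of 8 measured markers of adrenergic neuroblastoma, 1 was higher and 5 were lower in the arrays labelled CFC1, and the mean over the 8 ran from -0.13 to 0.03 in those arrays and from 0.53 to 0.64 in the mock arrays. ISL1 fell by 2.18 and GATA2 fell by 1.66, both transcription factors of sympathetic neurons and the largest falls of the list. DBH, HAND2 and GATA3 fell by 0.62, 0.41 and 0.35. MYCN rose by 0.16, and PHOX2A and TH did not pass (0.02 and 0.07). Of 6 fibroblast markers 5 were lower, with a mean between -0.12 and 0.06 against 1.19 to 1.31 in the mock arrays, and of 3 Schwann cell markers 2 were lower, with a mean between -0.47 and -0.18 against 0.24 to 0.64. Of 4 endothelial markers 1 was lower (25.0%, near the share of all genes), with a mean between -0.24 and 0.33 against 0.54 to 0.92 in the mock arrays. That gap rests on KDR, which fell by 3.08, while PECAM1, CDH5 and VWF did not pass (-0.11, 0.08 and -0.14). Of 4 immune markers 1 was higher and 1 lower (25.0% each), and the means overlapped. Whether any of these markers is at 0 cannot be read without levels, and their part in the results below was not tested.

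Oxidative phosphorylation takes place in the inner membrane of the mitochondrion. Complex I takes electrons from NADH and complex II from succinate, both pass them through ubiquinone to complex III, cytochrome c carries them on, and complex IV gives them to oxygen. Complexes I, III and IV pump protons, and complex V, the ATP synthase, uses their return to make ATP. All subunits of complex II and most of the others come from nuclear genes, while a core set is encoded in mitochondrial DNA and was not analysed here. Inherited loss of SDHB, SDHC or SDHD predisposes to paraganglioma, a tumour that arises, like neuroblastoma, from cells of neural crest origin.

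More subunit genes were higher than lower in the arrays labelled CFC1. Of the 82 genes, 42 (51.2%) were higher, where 29.7% of all genes were, and 22 (26.8%) were lower, where 28.2% of all genes were, at an adjusted p under 0.05 by limma. The other 18 did not pass. The share of lower genes was thus near the background and the share of higher genes above it. Together 64 members (78.0%) were called, against 57.9% of all genes. Their within-group spread was also narrower, with a median SD of 0.052 in the arrays labelled CFC1 and 0.053 in the mock arrays, against 0.11 in each group over all genes.

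The differences were small. Over the 82 members the median difference was 0.15 and the median size of a difference 0.32, where all genes had -0.09 and 0.39. A change of at least 1 log2 unit was reached by 3 members, where 18.7% of all genes reached it. These were NDUFV2, which was higher, and NDUFS7 and COXFA4L2, which were lower. NDUFS7 reached it only as the mean of probes at -0.16 and -2.09. The groups did not overlap in 61 of the 82 members (74.4%), where 56.5% of all genes had no overlap.

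**Figure D1:**
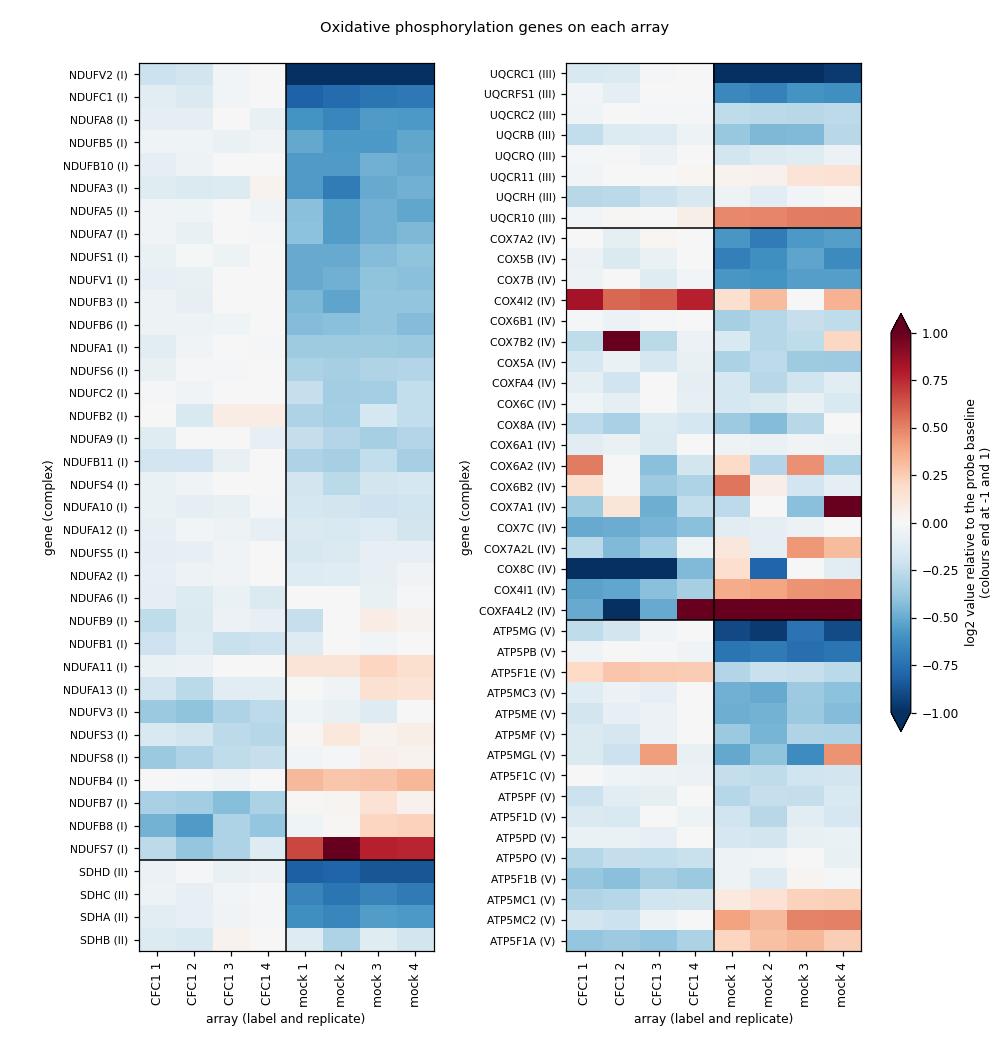
Each row is a subunit gene and each column an array, with the arrays labelled CFC1 on the left and the mock arrays on the right; colour shows the value on the log2 scale relative to the deposited baseline and ends at -1 and 1. Within each complex the rows run by difference, and 42 genes were higher, 22 lower and 18 not past the threshold in the arrays labelled CFC1.

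Complex II had the largest median difference and complex IV the smallest. The median over the 4 complex II genes was -0.08, -0.08, -0.03 and -0.01 in the arrays labelled CFC1 and -0.63, -0.69, -0.61 and -0.64 in the mock arrays. For the 35 genes of complex I the medians were -0.09, -0.08, -0.04 and -0.01 in the arrays labelled CFC1 and -0.23, -0.29, -0.20 and -0.24 in the mock arrays. The 8 genes of complex III had medians of -0.04, -0.05, -0.01 and 0.00 in the arrays labelled CFC1, against -0.22, -0.20, -0.20 and -0.16 in the mock arrays. In these 3 complexes every array labelled CFC1 lay above every mock array. In complexes IV and V the array medians of the groups overlapped. For complex IV they ran from -0.17 to -0.07 in the arrays labelled CFC1 and from -0.26 to -0.09 in the mock arrays. For complex V they ran from -0.16 to -0.02 in the arrays labelled CFC1 and from -0.26 to -0.16 in the mock arrays. Over all genes the array medians ran from -0.06 to -0.02 in the arrays labelled CFC1 and from -0.10 to 0.06 in the mock arrays. The median differences by gene were 0.19, 0.60, 0.17, 0.04 and 0.15 for complexes I to V. They are descriptions, and no test was made between complexes.

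**Figure D2:**
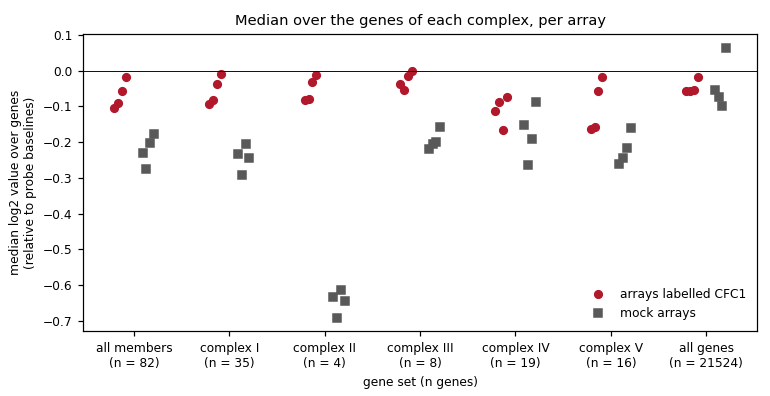
Each point is the median over the genes of a complex, or over all genes, in 1 array, on the log2 scale, with the arrays labelled CFC1 left of the mock arrays. The groups are farthest apart in complex II, where the arrays labelled CFC1 lie between -0.08 and -0.01 and the mock arrays between -0.69 and -0.61.

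In complex I, 21 of 35 genes rose (60.0%, against 29.7% of all genes), 10 fell (28.6%, against 28.2%) and 4 did not pass. The largest rise was that of NDUFV2, an iron-sulfur subunit of the module that oxidises NADH. NDUFV2 read -0.21, -0.19, -0.03 and 0.00 in the arrays labelled CFC1 and -1.15, -1.21, -1.08 and -1.05 in the mock arrays. All 4 arrays labelled CFC1 lay far above the mock arrays, and the difference was 1.01 (SE 0.07, adjusted p = 4.59e-06), a 2.02-fold change. NDUFC1, an accessory subunit of the membrane arm, read -0.10, -0.15, -0.02 and 0.00 in the arrays labelled CFC1 and -0.81, -0.77, -0.73 and -0.72 in the mock arrays, a rise of 0.69 (SE 0.04, adjusted p = 4.93e-06). The groups were again wide apart. The accessory subunits NDUFA8 and NDUFB5 followed, with rises of 0.53 and 0.50 and no overlap between groups.

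The core subunits of complex I, which between them carry its redox centres and bind ubiquinone, split by module, a grouping made after their values were seen. Of the 6 measured, 3 rose and 3 fell. All 3 that rose belong to the module that oxidises NADH. Besides NDUFV2 these were NDUFS1, its large iron-sulfur subunit, and NDUFV1, which binds the flavin and NADH. NDUFS1 read -0.07, -0.02, -0.05 and 0.00 in the arrays labelled CFC1 and -0.51, -0.50, -0.43 and -0.40 in the mock arrays, a difference of 0.42 (SE 0.04, adjusted p = 2.87e-05). NDUFV1 read -0.09, -0.08, 0.00 and 0.00 in the arrays labelled CFC1 and -0.51, -0.48, -0.40 and -0.42 in the mock arrays, a difference of 0.41 (SE 0.04, adjusted p = 5.37e-05). Neither gene's groups overlapped.

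The 3 core subunits that fell belong to the module that passes electrons to ubiquinone. NDUFS8, which carries iron-sulfur clusters, read -0.37, -0.31, -0.26 and -0.23 in the arrays labelled CFC1 and -0.03, -0.02, 0.05 and 0.03 in the mock arrays, a difference of -0.30 (SE 0.04, adjusted p = 0.000437). NDUFS3 read -0.15, -0.19, -0.26 and -0.29 in the arrays labelled CFC1 and 0.01, 0.11, 0.03 and 0.07 in the mock arrays, a difference of -0.28 (SE 0.04, adjusted p = 0.000793). In both genes all arrays labelled CFC1 lay below the mock arrays. NDUFS7, which binds the last iron-sulfur cluster before ubiquinone, fell most, by 1.13 (SE 0.12, adjusted p = 0.000109), and its probes differed widely, as given below. NDUFV3, a small accessory subunit of the NADH module, went against that module's core with a difference of -0.28 (SE 0.05, adjusted p = 0.00122).

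Among the accessory subunits, 8 of 12 NDUFA genes rose (66.7%) and 2 fell (16.7%). Of 11 NDUFB genes 6 rose (54.5%) and 4 fell (36.4%), and both NDUFC genes rose. NDUFC2 rose as the mean of probes at 0.74 and -0.19, and NDUFB8 fell with 1 of its 3 probes called. Over all genes 29.7% rose and 28.2% fell. NDUFB7 and NDUFB4, of the membrane arm, fell by 0.41 and 0.32. NDUFB7 read -0.32, -0.35, -0.42 and -0.32 in the arrays labelled CFC1 and 0.02, 0.03, 0.14 and 0.04 in the mock arrays. NDUFB4 read between -0.04 and 0.00 in the arrays labelled CFC1 and 0.33, 0.27, 0.28 and 0.33 in the mock arrays. The groups of both genes lay apart. With quantile normalization of the 8 arrays the difference of NDUFB4 was -0.17. NDUFS5, NDUFA2, NDUFA6 and NDUFB9 did not pass, with differences between -0.11 and 0.06.

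**Figure D3:**
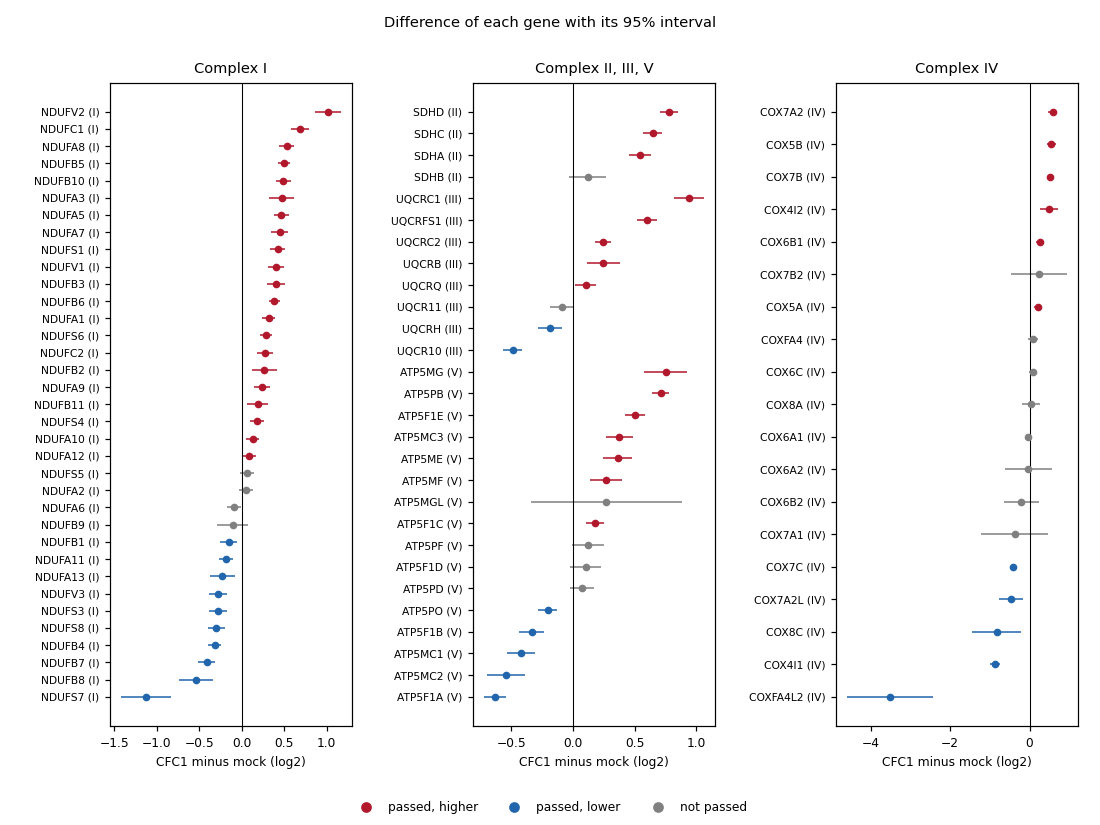
Points are the differences of the subunit genes, arrays labelled CFC1 minus mock arrays on the log2 scale, with 95% intervals from limma, in panels by complex; the complex IV panel has an axis of its own. Complex I runs from NDUFV2 at 1.01 to NDUFS7 at -1.13, and complex IV reaches -3.52 at COXFA4L2.

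In complex II, which also works in the citric acid cycle as succinate dehydrogenase, 3 of the 4 subunit genes rose (75.0%, against 29.7% of all genes). SDHD, one of the membrane anchors that hold the ubiquinone site, read -0.06, -0.02, -0.07 and -0.06 in the arrays labelled CFC1 and -0.82, -0.80, -0.86 and -0.86 in the mock arrays. The spread within each group was small beside the gap, and the difference was 0.78 (SE 0.03, adjusted p = 3.09e-07), a 1.72-fold change. SDHC, the other anchor, read -0.05, -0.08, -0.03 and -0.01 in the arrays labelled CFC1 and -0.66, -0.73, -0.67 and -0.71 in the mock arrays, a difference of 0.65 (SE 0.03, adjusted p = 1.23e-06). SDHA, the flavoprotein that oxidises succinate, read -0.11, -0.08, -0.04 and -0.01 in the arrays labelled CFC1 and -0.61, -0.66, -0.56 and -0.58 in the mock arrays, a difference of 0.54 (SE 0.04, adjusted p = 7e-06). In SDHC and SDHA all arrays labelled CFC1 lay above the mock arrays.

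SDHB, the iron-sulfur subunit, did not pass. SDHB read -0.14, -0.15, 0.04 and -0.01 in the arrays labelled CFC1 and -0.13, -0.31, -0.12 and -0.19 in the mock arrays, and the groups overlapped. Its difference was 0.12 with a 95% interval from -0.03 to 0.27 (adjusted p = 0.151), which lies below the differences of the other 3 genes. Without mock array 2 its difference was 0.08. The 4 probes of SDHA rose by 0.36 to 0.70, the 3 of SDHC by 0.58 to 0.69 and the 3 of SDHD by 0.73 to 0.82.

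In complex III, 5 of 8 genes rose (62.5%, against 29.7% of all genes), 2 fell (25.0%, against 28.2%) and 1 did not pass. UQCRC1, a core protein on the matrix side, read -0.15, -0.14, -0.02 and 0.00 in the arrays labelled CFC1 and -1.08, -1.05, -0.99 and -0.95 in the mock arrays. The groups lay wide apart, with a difference of 0.94 (SE 0.05, adjusted p = 1.94e-06). UQCRC2, its partner, differed by 0.25 (SE 0.03, adjusted p = 0.000114), with values between -0.04 and 0.00 in the arrays labelled CFC1 and between -0.28 and -0.25 in the mock arrays. UQCRFS1, the Rieske iron-sulfur protein, read -0.03, -0.09, 0.00 and 0.00 in the arrays labelled CFC1 and -0.64, -0.67, -0.60 and -0.61 in the mock arrays, a difference of 0.60 (SE 0.04, adjusted p = 2.98e-06). Its groups did not overlap.

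The small subunits of complex III moved less evenly. UQCR10 read -0.03, 0.01, 0.00 and 0.06 in the arrays labelled CFC1 and 0.48, 0.48, 0.51 and 0.52 in the mock arrays, a difference of -0.49 (SE 0.03, adjusted p = 5.53e-06). All arrays labelled CFC1 lay below the mock arrays, on each of its 3 probes. With quantile normalization its difference was -0.25. UQCRH, the hinge protein that contacts cytochrome c1, differed by -0.19 (SE 0.04, adjusted p = 0.00491), and this call was lost with quantile normalization (adjusted p = 0.0889) and with array medians set to 0 (adjusted p = 0.132). UQCRB, UQCRQ and UQCR11 had differences of 0.25, 0.10 and -0.09, of which the last did not pass (adjusted p = 0.0793). UQCRQ was close to the threshold (adjusted p = 0.0466) and its groups overlapped.

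In complex IV, 6 of 19 genes were higher (31.6%), 5 lower (26.3%) and 8 not past the threshold, shares near those over all genes (29.7% higher and 28.2% lower). The largest fall of all members was that of COXFA4L2, listed as NDUFA4L2 in the annotation, a paralogue of the complex IV subunit COXFA4 that is known to be induced by hypoxia through HIF1. COXFA4L2 read -0.51, -1.39, -0.50 and 1.04 in the arrays labelled CFC1 and 3.16, 3.18, 3.06 and 3.30 in the mock arrays. Every array labelled CFC1 lay below every mock array, but their SD was 1.01, against 0.10 in the mock arrays. The difference was -3.52 (SE 0.46, adjusted p = 0.000291), with a 95% interval from -4.60 to -2.43, an 11.4-fold fall. COXFA4 itself, listed as NDUFA4, differed by 0.10 (SE 0.06, adjusted p = 0.192), and its groups overlapped.

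Of the isoform pairs of complex IV, COX4I1 and COX4I2 had calls in opposite directions. COX4I1, the general form of the largest nuclear subunit, read -0.53, -0.52, -0.42 and -0.33 in the arrays labelled CFC1 and 0.37, 0.39, 0.45 and 0.46 in the mock arrays. The groups lay wide apart, with a difference of -0.87 (SE 0.05, adjusted p = 3.78e-06), a 1.83-fold fall. COX4I2, the form known from lung and from hypoxia, read 0.83, 0.57, 0.61 and 0.78 in the arrays labelled CFC1 and 0.16, 0.32, 0.00 and 0.35 in the mock arrays. All arrays labelled CFC1 lay above the mock arrays, and the difference was 0.49 (SE 0.10, adjusted p = 0.00288), or 0.90 with quantile normalization. The difference between the isoforms' responses was not tested.

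COX7A2, the general form of subunit VIIa, read 0.00, -0.09, 0.02 and 0.00 in the arrays labelled CFC1 and -0.59, -0.70, -0.57 and -0.55 in the mock arrays, a difference of 0.58 (SE 0.05, adjusted p = 1.48e-05). Its groups did not overlap. COX7A1, the form of heart and skeletal muscle, read -0.36, 0.12, -0.49 and -0.25 in the arrays labelled CFC1 and -0.26, 0.00, -0.42 and 1.22 in the mock arrays, and did not pass (-0.38, adjusted p = 0.404). Without mock array 4, which stands above the rest, its difference was -0.01. COX7A2L, a related factor that joins complexes III and IV in supercomplexes, read -0.27, -0.44, -0.34 and -0.05 in the arrays labelled CFC1 and 0.12, -0.09, 0.43 and 0.31 in the mock arrays. Its groups overlapped through 1 array on each side, and the difference was -0.47 (SE 0.13, adjusted p = 0.0165). Only its probe annotated to an Ensembl transcript overlapped, and it did not pass (-0.63, SE 0.37, adjusted p = 0.243 over all probes). The RefSeq probes of COX7A2L passed without overlap, at -0.38 and -0.40 (adjusted p = 0.000214 and 0.00218 over all probes).

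COX7B read -0.05, 0.00, -0.12 and -0.03 in the arrays labelled CFC1 and -0.58, -0.60, -0.55 and -0.55 in the mock arrays, a difference of 0.52 (SE 0.04, adjusted p = 8.12e-06). Its testis form COX7B2 did not pass (0.23, SE 0.30, adjusted p = 0.533). COX6B1 rose by 0.25 (SE 0.03, adjusted p = 0.000359), while the testis form COX6B2 differed by -0.21 (SE 0.19, adjusted p = 0.374), or by -0.06 without mock array 1. COX6A1 and its muscle form COX6A2 each differed by -0.03, and neither passed (adjusted p = 0.502 and 0.918). The standard errors of the tissue-restricted forms, from 0.19 to 0.36 for COX6A2, COX6B2, COX7A1, COX7B2 and COX8C, exceeded those of their general forms, from 0.03 to 0.10.

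COX8C, the testis form of subunit VIII, read -1.18, -1.28, -1.13 and -0.44 in the arrays labelled CFC1 and 0.17, -0.79, 0.00 and -0.10 in the mock arrays. The groups overlapped through 1 array on each side, and the difference of -0.83 (SE 0.26, adjusted p = 0.0273) was no longer called without CFC1 array 1, 2 or 3 or mock array 1, 3 or 4, with values from -0.80 to -0.71 and adjusted p from 0.0634 to 0.0716. With quantile normalization it was -1.45. COX8A, the general form, differed by 0.04 (SE 0.10, adjusted p = 0.715). COX5B rose by 0.55 and COX5A by 0.20, and COX7C fell by 0.40. COX7C read between -0.50 and -0.42 in the arrays labelled CFC1 and between -0.11 and 0.00 in the mock arrays, with no overlap.

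In complex V, 7 of 16 genes rose (43.8%, against 29.7% of all genes), 5 fell (31.2%, against 28.2%) and 4 did not pass. The catalytic head was split. ATP5F1A and ATP5F1B encode its alpha and beta subunits, which bind nucleotides and form ATP. ATP5F1A read -0.39, -0.36, -0.38 and -0.31 in the arrays labelled CFC1 and 0.21, 0.29, 0.33 and 0.25 in the mock arrays, a difference of -0.63 (SE 0.04, adjusted p = 3.18e-06). ATP5F1B read -0.38, -0.42, -0.33 and -0.37 in the arrays labelled CFC1 and -0.05, -0.13, 0.03 and -0.01 in the mock arrays, a difference of -0.34 (SE 0.04, adjusted p = 0.000266). Both catalytic-ring genes were lower in all arrays labelled CFC1 than in any mock array.

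The genes of the central stalk, which turns inside the head, did not follow. ATP5F1E, the epsilon subunit, read 0.20, 0.28, 0.27 and 0.25 in the arrays labelled CFC1 and -0.29, -0.22, -0.23 and -0.27 in the mock arrays, a difference of 0.50 (SE 0.03, adjusted p = 5.41e-06). ATP5F1C, the gamma subunit, read between -0.06 and 0.00 in the arrays labelled CFC1 and between -0.25 and -0.18 in the mock arrays, a difference of 0.18 (SE 0.03, adjusted p = 0.00171). Both lay higher in all arrays labelled CFC1. ATP5F1D, the delta subunit, differed by 0.10 (SE 0.05, adjusted p = 0.151), and its groups overlapped.

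The c subunit, of which a ring in the membrane carries the protons, comes from 3 genes that encode the same mature protein, and these moved apart. ATP5MC1 read -0.30, -0.29, -0.20 and -0.18 in the arrays labelled CFC1 and 0.10, 0.14, 0.23 and 0.24 in the mock arrays, a difference of -0.42 (SE 0.05, adjusted p = 0.000135). ATP5MC2 read -0.18, -0.22, -0.05 and 0.00 in the arrays labelled CFC1 and 0.40, 0.32, 0.50 and 0.50 in the mock arrays, a difference of -0.54 (SE 0.07, adjusted p = 0.000185), or -0.35 with quantile normalization. Both were lower in all arrays labelled CFC1. ATP5MC3 read -0.12, -0.06, -0.08 and 0.00 in the arrays labelled CFC1 and -0.48, -0.50, -0.36 and -0.41 in the mock arrays, a difference of 0.38 (SE 0.05, adjusted p = 0.00019). It was higher in all arrays labelled CFC1.

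Of the peripheral stalk, which holds the head still, ATP5PB rose and ATP5PO fell. ATP5PB, the b subunit, read -0.03, 0.00, -0.01 and -0.03 in the arrays labelled CFC1 and -0.73, -0.70, -0.75 and -0.73 in the mock arrays. The groups were tight and wide apart, with a difference of 0.71 (SE 0.03, adjusted p = 3.55e-07). ATP5PO, which links the stalk to the head, differed by -0.21 (SE 0.03, adjusted p = 0.000828). ATP5PF and ATP5PD did not pass (0.12 and 0.07). Among the small membrane subunits ATP5MG rose by 0.75 (SE 0.07, adjusted p = 5.13e-05), reading -0.25, -0.18, -0.04 and 0.00 in the arrays labelled CFC1 and -0.90, -0.95, -0.74 and -0.89 in the mock arrays. ATP5ME rose by 0.36 and ATP5MF by 0.27, and ATP5MGL, a copy of ATP5MG, did not pass as a mean of probes that differed (0.27, SE 0.26).

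Probes of one gene gave different answers in some members. Of the 20 members with several probes, 2 had probes called in opposite directions, where 5.45% of all genes with several probes had such calls. NDUFA10 differed by 0.32 and 0.39 on its 2 RefSeq probes and by -0.32 on a probe annotated to an Ensembl transcript, which left a gene mean of 0.13. NDUFC2 differed by 0.74 and -0.19 on its probes, with a mean of 0.28. For NDUFS7 the probe of the RefSeq transcript read -0.07, -0.10, 0.00 and 0.01 in the arrays labelled CFC1 and 0.12, 0.08, 0.16 and 0.14 in the mock arrays, a difference of -0.16 (SE 0.05, adjusted p = 0.0206 over all probes). Its Ensembl probe read -0.45, -0.68, -0.62 and -0.26 in the arrays labelled CFC1 and 1.22, 2.35, 1.39 and 1.38 in the mock arrays, a difference of -2.09 (SE 0.25, adjusted p = 0.000277 over all probes). Both were lower, and the 1.13 fall of the gene lies mostly with the second.

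For NDUFB8, unlike NDUFS7, the fall of 0.54 for the gene had a single called probe behind it. Its Ensembl probe read -1.37, -1.60, -0.81 and -1.15 in the arrays labelled CFC1 and 0.08, 0.22, 0.80 and 0.78 in the mock arrays, a difference of -1.70 (adjusted p = 0.000552 over all probes). Its RefSeq probes differed by 0.10 and -0.01, and neither passed (adjusted p = 0.0774 and 0.811 over all probes). UQCRB differed by 0.59 on one probe, which passed, and by -0.10 on the other, which did not. ATP5MGL rose by 0.76 on its RefSeq probe (SE 0.06, adjusted p = 1.86e-05 over all probes), without overlap between groups, and differed by -0.22 (SE 0.52) on a probe of an expressed sequence tag. The place of each probe on its transcripts is not given in the sources used here.

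**Figure D4:**
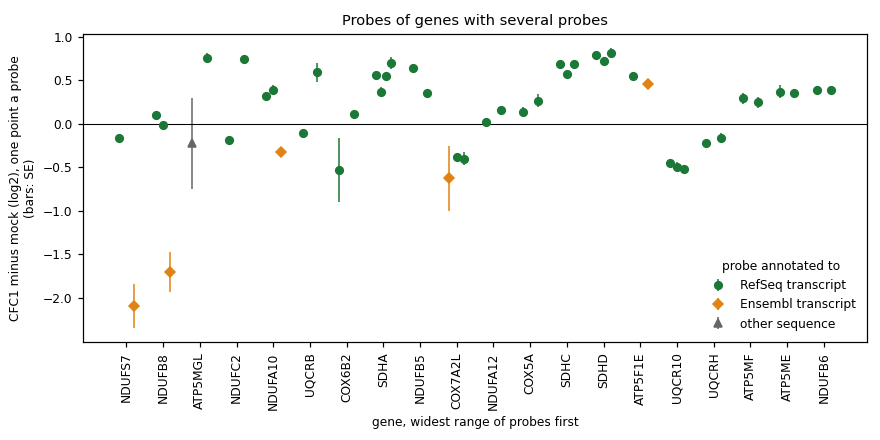
Points are the differences of single probes, arrays labelled CFC1 minus mock arrays on the log2 scale, with bars for the SE, for the members with several probes; the marker shows whether the probe is annotated to a RefSeq, an Ensembl or another sequence. The probes of SDHA, SDHC and SDHD lie together between 0.36 and 0.82, while those of NDUFS7 lie at -0.16 and -2.09.

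The 4 genes that matched the rule under older or compound symbols were not counted above. DMAC2L, formerly ATP5S, a factor associated with ATP synthase, fell by 1.05 (SE 0.03, adjusted p = 1.16e-07), and DMAC2, formerly ATP5SL, a factor of complex I assembly, fell by 0.25 (adjusted p = 0.00069). The non-coding RNA NDUFA6-DT fell by 0.70 (SE 0.03, adjusted p = 2.87e-07), while NDUFA6, which starts 161 bases away on the other strand, differed by -0.09 and did not pass. NDUFB2-AS1 did not pass (-0.09, adjusted p = 0.55). Genes that carry an ATP5 symbol only in current naming were ATP5MK, a small membrane subunit, which rose by 0.39, ATP5MJ, which fell by 0.22, and ATP5IF1, the inhibitor of ATP hydrolysis by complex V, which fell by 0.63 (SE 0.05, adjusted p = 1.67e-05).

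The factors that build the complexes were counted from lists of known assembly genes. Of 18 complex I assembly factors 10 rose (55.6%, against 29.7% of all genes) and 5 fell (27.8%, against 28.2%). NDUFAF3, which joins the ubiquinone module early, averaged -0.08 ± 0.09 in the arrays labelled CFC1 and -1.84 ± 0.13 in the mock arrays (SD, n = 4 each), a rise of 1.76 (adjusted p = 4.47e-07 by limma). TMEM126B rose by 1.08 and DMAC1 fell by 1.34, both factors of the membrane arm. All 4 complex II assembly factors rose, by 0.20 to 1.11, with SDHAF4 the highest. Of 9 complex III factors 5 rose (55.6%) and 1 fell (11.1%), with UQCC1 and UQCC3 each at 1.16 and TTC19 at -0.42.

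For complex IV, 11 of 25 factors rose (44.0%) and 7 fell (28.0%, near the 28.2% of all genes). COX17, the copper chaperone, rose by 1.24 and SCO1, which passes copper on, by 0.91, while COX18, which inserts a mitochondrially encoded subunit, fell by 0.86. The list for complex V ran mostly the other way, with 1 of 7 factors higher (14.3%) and 5 lower (71.4%). OXA1L, the insertase of the inner membrane, fell by 0.83 and FMC1 by 0.65. Cytochrome c (CYCS) rose by 0.54, but its 3 probes ran from -0.74 to 1.19, and HCCS, which attaches its haem, rose by 0.89. CYC1, the cytochrome c1 of complex III, rose by 0.17 (adjusted p = 0.017).

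Of 15 listed regulators of mitochondrial biogenesis, 8 rose (53.3%, against 29.7% of all genes), 4 fell (26.7%, against 28.2%) and 3 did not pass. NRF1, a transcription factor of respiratory chain genes, averaged 0.02 ± 0.09 in the arrays labelled CFC1 and -0.91 ± 0.05 in the mock arrays (SD, n = 4 each), a rise of 0.93 (adjusted p = 2.83e-06 by limma). PPARGC1A, the coactivator PGC-1alpha, rose by 0.79. GABPB1 rose by 1.22, while GABPA, the ETS factor that it partners, differed by -0.04 and did not pass. TFAM, which packs and transcribes mitochondrial DNA, rose by 0.16, while TFB1M fell by 0.92 and the nuclear receptor ESRRG by 2.02.

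Of 77 protein-coding genes of the mitochondrial ribosome, 45 (58.4%) rose and 15 (19.5%) fell, where 29.7% and 28.2% of all genes did, with a median difference of 0.26. MRPS14 rose by 1.28 and MRPL24 fell by 1.20. Of 12 measured genes of the citric acid cycle 4 rose (33.3%) and 5 fell (41.7%). IDH3A, of the NAD-linked isocitrate dehydrogenase, rose by 0.82, and citrate synthase (CS) fell by 0.36 and OGDH by 0.45. The mean rise of SUCLG2, of 2.24, rests on probes at -0.60 and 5.09.

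Promoter sequences from RefSeq, 250 bases before to 50 after each gene's start on GRCh38.p14, were found for 68 of the 82 members. They were searched on both strands for a motif each of NRF1 (GCGCATGCG), of ETS factors such as GABPA (CCGGAAG), of YY1 (AAGATGGCG) and of SP1 (GGGGCGGGG). The only overlapping matches in members were 4 places where the NRF1 motif reads on both strands, 1 base apart. Shown are 6 of the 10 members with the NRF1 motif, chosen because some rose and some fell, and NDUFV2, the member with the largest rise, which holds the SP1 motif at 2 places. Capitals mark the motifs. In SDHD the later capitals are the ETS motif on the other strand, and in NDUFS6 the first capitals, like both runs in NDUFV2, are the SP1 motif on the other strand. The stretches are NDUFA8, chr9:122159754-122159803, minus strand; NDUFS6, chr5:1801288-1801389, plus strand; SDHD, chr11:112086743-112086822, plus strand; ATP5F1C, chr10:7788135-7788184, plus strand; NDUFB4, chr3:120596157-120596206, plus strand; ATP5MC2, chr12:53676096-53676144, minus strand; and NDUFV2, chr18:9102510-9102634, plus strand.
NDUFA8: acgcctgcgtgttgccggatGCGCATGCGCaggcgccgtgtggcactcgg
NDUFS6: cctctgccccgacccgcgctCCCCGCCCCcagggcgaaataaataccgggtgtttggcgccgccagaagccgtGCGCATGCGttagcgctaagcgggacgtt
SDHD: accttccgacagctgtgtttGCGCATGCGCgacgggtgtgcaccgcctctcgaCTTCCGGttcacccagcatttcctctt
ATP5F1C: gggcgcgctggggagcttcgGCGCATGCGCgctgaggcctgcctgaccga
NDUFB4: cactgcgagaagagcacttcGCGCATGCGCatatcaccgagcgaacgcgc
ATP5MC2: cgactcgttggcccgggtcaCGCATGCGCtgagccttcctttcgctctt
NDUFV2: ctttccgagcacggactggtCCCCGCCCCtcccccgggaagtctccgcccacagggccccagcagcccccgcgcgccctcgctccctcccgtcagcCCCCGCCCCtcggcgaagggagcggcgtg

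Of the 10 members with the NRF1 motif, 5 rose, 3 fell and 2 did not pass. Of all 82 members 51.2% rose and 26.8% fell, and of all genes 29.7% and 28.2%. The motif was in 14.3% of the promoters of members that rose, 14.3% of those that fell and 16.7% of the rest. Whether NRF1 acts on these genes here was not tested. NDUFA8 rose by 0.53, NDUFS6 by 0.29, SDHD by 0.78, ATP5F1C by 0.18 and ATP5ME by 0.36. NDUFB4 fell by 0.32, ATP5MC2 by 0.54 and NDUFS7 by 1.13, the last as the mean of probes at -0.16 and -2.09. COX6A1 and ATP5PF did not pass. The motif begins 4 bases before the start of NDUFA8, 22 before ATP5F1C, 41 before ATP5MC2, 46 before NDUFS6, 110 before SDHD and 159 before NDUFB4. It was in 14.7% of the members' promoters, in 2.10% of the 27305 promoters of the table and in 2.74% of those of all genes tested. The YY1 motif was in 8 members (11.8%, against 1.85% of all promoters and 2.68% of those of tested genes) and the SP1 motif in 9 (13.2%, against 16.0% and 21.9%). A match is a run of letters in the window and does not show binding.

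The ETS motif was in 19 of the 68 promoters (27.9%), where 10.7% of all promoters and 13.9% of those of tested genes held it. By direction it was in 8 of 35 members that rose, in 5 of 21 that fell and in 6 of 12 that did not pass. The YY1 motif was in 4 of the 35, 1 of the 21 and 3 of the 12 in the same order. The SP1 motif was in 7 of the 35 that rose, 1 of the 21 that fell and 1 of the 12 that did not pass. These shares are counts of few genes and were not tested.

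The differences of members ran with those of the genes beside them on the chromosome. For each member the median difference was taken over the 20 measured genes before it and the 20 after it in RefSeq order. Across the 82 members, Pearson's r between a member's difference and this median was 0.53 and Spearman's rho 0.48, and Pearson's r was 0.28 across the 21509 placed genes. These describe genes on shared arrays, some with overlapping sets of neighbours, and carry no test. UQCRC1, at 0.94 on chromosome 3, lies among neighbours with a median of 0.92, of which 34 of 40 were higher and 1 lower. ATP5F1A, at -0.63 on chromosome 18, lies among neighbours at -0.60, of which 1 was higher and 26 were lower. SDHD, at 0.78 on chromosome 11, has neighbours at 0.46, with 19 higher and 2 lower.

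Other members stood away from their neighbours. NDUFV2 at 1.01 has neighbours at 0.30, and COX4I1 at -0.87 has neighbours at -0.38. COXFA4L2 at -3.52 has neighbours at -0.52, of which 28 of 40 were lower. NDUFC1 at 0.69 and SDHC at 0.65 have neighbours at -0.14 and -0.08, and NDUFS7 at -1.13 has neighbours at 0.13. Of the 64 members called, 37 had the sign of their neighbours' median. The matching share over all called genes was not computed, so this count has no background to be read against. A member lay above that median in 53 of 82 cases (64.6%), by 0.16 at the median, and over all placed genes this share was 50.1%.

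**Figure D5:**
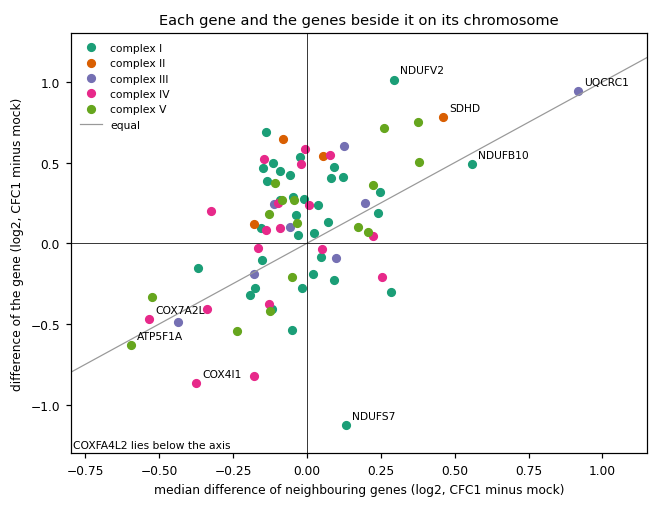
Each point is a subunit gene, with the median difference of its 40 nearest measured genes on the chromosome on the horizontal axis and its own difference on the vertical axis, both arrays labelled CFC1 minus mock arrays on the log2 scale; COXFA4L2, at -3.52, lies below the axis. UQCRC1 and ATP5F1A lie close to their neighbours' values of 0.92 and -0.60, and 53 of the 82 genes lie above them.

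Some members start close to a gene on the other strand. Starts within 1000 bases on opposite strands were found for 20 pairs, and both genes were called in 8 of them, in the same direction in 6. These shares, 40.0% of pairs and 75.0% of those, compare with 49.2% and 69.1% over the 1014 such pairs among all genes tested. ATP5PB at 0.71 is paired with WDR77 at 0.88, UQCR10 at -0.49 with ZMAT5 at -0.59 and ATP5F1A at -0.63 with HAUS1 at -0.27. The opposite held for NDUFA7 at 0.45 beside RPS28 at -0.37 and for UQCRQ at 0.10 beside GDF9 at -1.37. COX4I1 at -0.87 is paired with EMC8, which differed by -0.03, and SDHA at 0.54 with CCDC127 at 0.02.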

How the data were processed

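Total RNA (200 ng a sample) was labelled with Cyanine3 for one-colour Agilent arrays, per the labels' protocols. The authors deposited 1 value per probe and array on a log scale, taken here to be log2. The sources used here do not give how signals were extracted, corrected and scaled, nor the log base or the baseline. An exact 0 stands in at most 1 array of a probe and was counted on neither side. Counted so, no probe has all 8 values above 0 or all 8 below 0, but a single exact 0 is enough for that. With the exact 0 set aside, many probes of members have only values below 0. The probe of NDUFV2 reads 0.00 in CFC1 array 4 and below 0 in every other array. The deposited log2 values ran from -13.0 to 9.81 and the array medians from -0.145 to 0.139. There are no detection or saturation flags, so the number of arrays limits the precision and a fold change near background is a fitted value.

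From the 50739 rows, 140 control spots were left out. Of 50599 probes, 31993 had 1 symbol in the platform annotation and 18606 none. Names were updated to RefSeq symbols through accession (28423 probes), symbol (3069) or synonym (479), and 22 were kept. Probes of a gene were averaged, giving 21524 genes. A pseudogene, with 2 probes, was left out of the members.

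All 8 arrays entered a limma fit (version 3.58.1, R 4.3.3) with lmFit and eBayes, without trend, weights or block. Differences are arrays labelled CFC1 minus mock arrays. P-values are two-sided and Benjamini-Hochberg adjusted over all genes, with a threshold of 0.05. Sums, medians and motif searches used Python 3.11.15. The members and gene lists were chosen with earlier results of these data known. Named with values were the 4 largest rises and the 4 largest falls of each complex among called genes without overlap, all of complex II, core subunits, isoform pairs and members whose probes disagree. Other genes named were chosen after their values were seen. They include further members, such as NDUFV3 and ATP5PO, and genes from the marker, assembly, regulator, ribosome and citric acid cycle lists. Genes named as neighbours or for their probes were also chosen in this way. The fit was tested on simulated data of 21524 genes for this comparison, with 100 genes changed by 1 unit and 100 by 0.5 unit. It recovered 77% of the changes of 1 unit and 48% of those of 0.5 unit. Far more genes were called in the real data (12456), and the members had a narrower spread than all genes. These rates therefore need not hold for the members. Alternatives were a replicate block, quantile normalization, array medians set to 0, array weights, a trend, unmoderated variances, single probes, natural logarithms, current symbols, the narrowest genes left out and each array left out.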

Additional observations from a re-analysis of the deposited data

Results flagged for a closer look

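One member had an array far from the others of its group. COX7B2, the testis form of a complex IV subunit, read 1.04 in CFC1 array 2, while the other 3 arrays labelled CFC1 read between -0.27 and -0.06 and the mock arrays between -0.29 and 0.20. Of 104 groups of 4 arrays examined, 1 stood out in this way, and chance gives about 1 in 20.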

How the results depend on the processing

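The alternatives left most results as they were. Of 852 values for the 51 named members, 825 kept their direction and their side of the threshold. Without any one array, 40 to 42 members were higher and 21 to 22 lower, and the median difference was 0.13 to 0.16. Quantile normalization gave 41 higher and 17 lower, array medians set to 0 gave 38 and 17, and single probes gave 37 and 19.

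With the genes of the narrowest range left out, 27 members were higher and 13 lower with a median of 0.40, complex I had 12 higher and 3 lower and complex III 2 higher and 1 lower, since this setting removes genes. In complex III, 1 gene was lower with quantile normalization, with array medians set to 0 and over single probes, and 3 were higher over single probes. The members' median was 0.20 with array medians set to 0 and 0.22 when values were read as natural logarithms, which rescales every difference.

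The fall of CFC1 lost its call with the replicate block (-0.80, adjusted p = 0.0761), unmoderated variances (-0.80, 0.0662), single probes (-0.80, 0.0546), quantile normalization (-0.74, 0.0678) and array medians set to 0 (-0.75, 0.0582). It ran from -0.94 to -0.57 without 1 array, and was not called without mock array 1 or 2 or CFC1 array 2, 3 or 4. The sign turned in genes that were never called. COX6A1 was 0.0265 with quantile normalization and 0.0095 with array medians set to 0, and COX6A2 was 0.0799 and 0.0092 there. Without 1 array COX6A2 ran from -0.21 to 0.12, COX7B2 from -0.0738 to 0.36 and COX8A from -0.0095 to 0.13. Over single probes, where all probes must agree, NDUFB8, NDUFA10, NDUFC2, UQCRB, COX7A2L and UQCRH were not called, and NDUFA10 was not called with array medians set to 0 (0.17, adjusted p = 0.0992). The causes were not tested.

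Samples that share a replicate number deviated together with correlations of 0.14, 0.20, 0.07 and 0.19, and every sample correlated best with its own number. Correlations between samples of different numbers ran from -0.14 to 0.07. The main fit did not pair samples by number, and whether the numbers mark a shared batch was not tested. With the replicate block 13200 genes and 43 higher and 23 lower members were called, with ATP5F1D (0.10, adjusted p = 0.0404), ATP5PF (0.12, 0.0264) and COX6B2 (-0.21, 0.0423) gained and UQCRQ (0.10, 0.0609) lost.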
